A study of Mus musculus with 7 samples.

Results

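The genes of mitochondrial proteins were studied in RNA of seminiferous tubules from wild-type and *Ctcf*-cKO mice. The array table was made by the authors and lists the transcript clusters that passed their thresholds of a linear fold of 2 and of p. A gene was counted as mitochondrial when a Gene Ontology cellular component term of its row contained the letters mitochondri, provided that its symbol did not begin with Slc and that no biological process term of the row named lipids, fatty acids, steroids, sterols, spermatogenesis, DNA repair or translation. Rows with the same leading symbol were taken as 1 gene, and 193 of the 3997 coding genes in the table (4.83%) were mitochondrial by this rule. The rule used only annotation, no measured value. It also takes in genes whose proteins are best known from other places in the cell, such as *Ctsb*, *Ass1* and *Cd36*. For 20 of the 193 genes, among them *Star*, *Cd36*, *Acsl1* and *Ucp2*, the row held no biological process term. The exclusions by process could not act on these genes. Because every listed gene had to differ by a fold of 2 or more, the counts below describe the listed genes and not the mitochondrion as a whole, and a gene with no row has no value here.

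Mitochondria carry the respiratory chain, whose complexes pass electrons from NADH and succinate to oxygen, and an ATP synthase that is driven by the resulting proton gradient. Their matrix holds the tricarboxylic acid cycle and the enzymes that break down amino acids and ketone bodies. In the testis, several mitochondrial proteins exist as a somatic form and as a form made in spermatocytes and spermatids, and mitochondria are finally wrapped into a sheath around the sperm midpiece. Leydig cells, the steroid-producing cells between the tubules, start steroid synthesis in their mitochondria.

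CTCF is a zinc finger protein that binds DNA and organizes chromatin loops. The arrays compared 3 wild-type and 4 *Ctcf*-cKO mice of 12 to 15 weeks on a C56BL/6J background (the name as the methods spell it), with 1 array per mouse. The *Ctcf*-cKO mice carried the *Stra8*-iCre transgene with 1 floxed and 1 already excised *Ctcf* allele (f/Δ). The wild-type group was made of littermates without Cre, which carried *Ctcf* f/f, wt/f or wt/wt. The *Stra8* promoter drives Cre in spermatogonia and pre-leptotene spermatocytes, so that Sertoli, Leydig and other somatic cells keep the floxed *Ctcf* allele. Their other allele was already excised, and the study counts f/Δ mice without Cre as heterozygous. The wild-type group had no excised allele. The part of this difference between the somatic cells of the groups was not tested. The methods name seminiferous tubules as the source of the RNA, whereas the sample titles name the testis. *Ctcf* itself had 0 rows in the table, so the targeted gene could not be checked here. The table gives 1 average of the log2 signal per genotype. It holds no value of a single mouse, so that neither a spread between mice nor a test could be computed, and precision is limited by the small number of arrays. Where 2 averages are given below for a gene, the first is that of wild-type and the second that of *Ctcf*-cKO.

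Most of the listed mitochondrial genes were higher in *Ctcf*-cKO. Of the 193 genes, 142 (73.6%) were higher and 51 (26.4%) were lower. Among all coding genes of the table the balance was the other way, with 38.7% higher and 61.3% lower. Mitochondrial genes thus made up 9.18% of the higher and 2.08% of the lower coding genes. No test of this difference was made, since genes are not replicates and each genotype has only its average. The median difference, *Ctcf*-cKO minus wild-type, was 1.345 for the higher mitochondrial genes and -1.26 for the lower ones, beside 1.33 and -1.29 for all higher and lower coding genes. These medians were therefore close to those of the table, whereas the balance of directions was not. The extremes were less far out, with a largest decrease of -1.73 beside -2.96 in all coding genes and a largest increase of 2.49 beside 3.4. A fold of 3 or more was reached by 39 higher mitochondrial genes (20.2%, beside 10.3% of all coding genes) and by 3 lower ones (1.55%, beside 7.98%). These shares are over genes of both directions. Among higher genes alone, 27.5% of the mitochondrial and 26.7% of all coding genes reached it, and among lower genes alone 5.88% and 13%. The 3 lower genes were *4931431F19Rik*, *Maats1* and *Oxct2b*. A fold of 4 was passed by 9 higher genes and by 0 lower ones. The directions given here are those of the averages as deposited. Subtracting the median difference of the whole table, -1.145, to re-centre the values would keep every higher gene higher and put 20 of the 51 lower genes above 0. This median was taken over rows selected for their fold.

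The lower and the higher genes also lay at different signal levels in wild-type. The wild-type averages of the lower genes ran from 6.51 to 12.54 with a median of 9.71, and those of the higher genes from 5.04 to 10.45 with a median of 7.595. Of the lower genes, 20 had a wild-type average of 10 or more, against 1 of the higher genes, *Glul*, which encodes glutamine synthetase (10.45 and 11.49). In *Ctcf*-cKO, 39 of the 51 lower genes still averaged more than the median of the higher genes in wild-type. All coding genes of the table showed nearly the same medians in wild-type, 9.39 for the lower and 7.45 for the higher ones. Probe sets differ in their response, so these levels describe groups of genes and rank no gene against another.

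**Figure D1:**
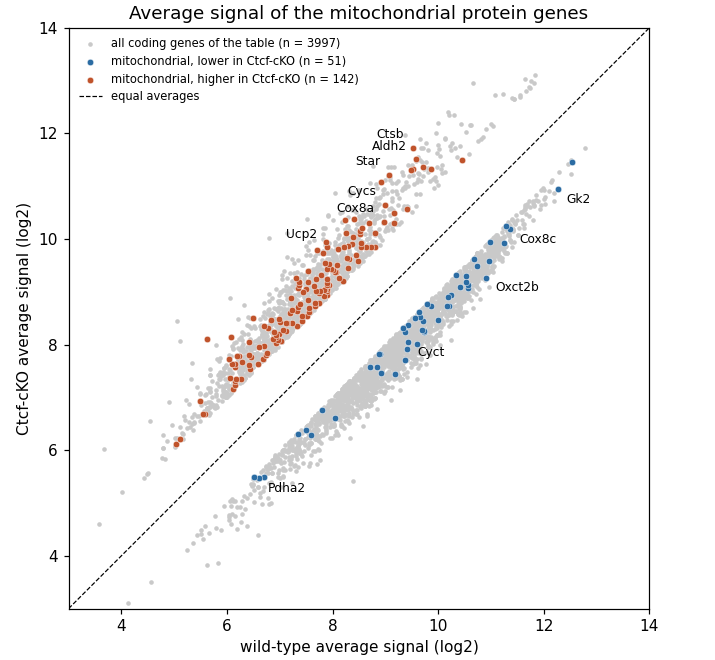
Average log2 signal in wild-type (horizontal axis) and *Ctcf*-cKO (vertical axis) for all 3997 coding genes of the table (grey) and for the 51 lower (blue) and 142 higher (orange) mitochondrial genes; the dashed line marks equal averages. The empty band along the line is the fold threshold of the table, and the blue points reach further to the right than the orange ones.

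Markers of the cell types of the testis moved with genotype in the same table. Of 36 genes listed as markers of 5 somatic cell types, 24 had a row and all 24 were higher in *Ctcf*-cKO. The 7 Leydig cell markers with a row lay between 1.39 and 2.97 above wild-type (median 2.15), and the 8 Sertoli cell markers between 1.11 and 2.28 (median 1.605). Listed differences were smaller for 3 of 5 peritubular myoid markers (1.06 to 1.42) and 2 of 6 endothelial markers (1.12 to 1.13), and 4 of 7 macrophage markers lay between 1.09 and 2.33. *Insl3* of the Leydig list and *Amh* of the Sertoli list had no row. Of 39 markers of 4 germ cell stages, 22 had a row, of which 21 were lower. These were 10 of 11 spermatocyte markers (median -1.27), 9 of 10 round spermatid markers (median -1.38) and 2 of 10 elongating spermatid markers. *Prm1*, *Prm2*, *Tnp1*, *Tnp2*, *Odf1*, *Smcp*, *Gapdhs* and *Oaz3* of the elongating list had no row. The 1 higher germ cell marker was *Kit* of the spermatogonial list (7.81 and 10.09), a receptor that Leydig cells also make. The other spermatogonial markers had no row. In RNA of whole tissue, fewer cells of a type and less RNA per cell cannot be told apart. The part of these markers in the results on mitochondrial genes was not tested.

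**Figure D2:**
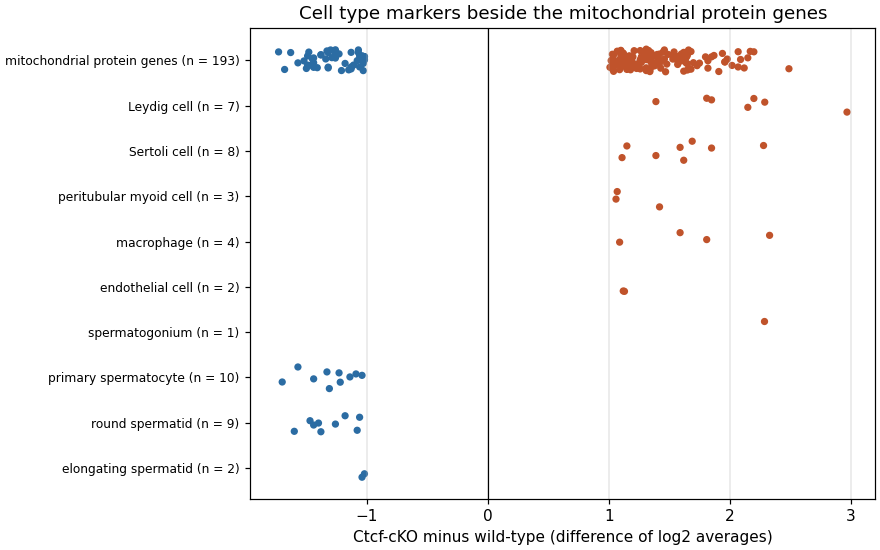
Difference of the log2 averages, *Ctcf*-cKO minus wild-type, for each mitochondrial gene (top row, n = 193) and for each cell type marker with a row; every point is 1 gene, blue where lower and orange where higher, and the vertical scatter within a row has no meaning. All points of the 5 somatic lists lie to the right, and all points of the spermatocyte and spermatid lists lie to the left.

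Listed genes of mitochondrial proteins with a form of their own in male germ cells were lower in *Ctcf*-cKO where they had a row. A list of 18 germ-cell isoforms and sperm mitochondrial sheath genes had 13 genes with a row, and all 13 were lower, with differences from -1.60 to -1.01 and a median of -1.38. Beside them, 26.4% of the mitochondrial genes and 61.3% of all coding genes of the table were lower. With such re-centring, *Pdha2*, *Gykl1* and *Spata33* of this list would lie above 0 and the rest below. Of these, 7 were mitochondrial by the rule. *Gk2*, a glycerol kinase of spermatids that is needed for an ordered sheath, averaged 12.26 and 10.94. *Cyct*, the testis form of the electron carrier cytochrome c, averaged 9.43 and 8.05. *Cox8c* and *Cox7b2*, testis forms of 2 small subunits of cytochrome c oxidase, averaged 11.36 and 10.18, and 10.97 and 9.59. *Pdha2*, the intronless testis form of the E1 alpha subunit of pyruvate dehydrogenase, averaged 6.6 and 5.47. *Csl*, a citrate synthase-like gene, averaged 10.57 and 9.12, and *Tomm20l*, a relative of the import receptor Tom20, averaged 9.59 and 8.02. The 6 other listed genes with a row, which the rule left out, were *Slc25a31*, *Gykl1*, *Spata19*, *Armc12*, *Tbc1d21* and *Spata33*, with differences of -1.21, -1.01, -1.54, -1.60, -1.40 and -1.03. *Cox6b2*, *Smcp*, *Ldhc*, *Vdac3* and *Gpx4* of the list had no row and so no value here.

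For the proteins compared here in both forms, each germ-cell form with a row was lower and each somatic form with a row was higher. The comparison was set up for 11 such proteins, *Oxct2a* and *Oxct2b* counted apart, and their germ-cell forms had a row in 10 cases, all lower, while somatic forms had a row in 4 cases, all higher. The pairs were chosen with earlier results of these data known, so these counts are a description only. Both forms had a row for 3 proteins. For cytochrome c, *Cyct* differed by -1.38 and the somatic *Cycs* by 1.65 (9.0 and 10.65). For subunit VIII of cytochrome c oxidase, *Cox8c* differed by -1.18 and *Cox8a* by 1.36 (8.97 and 10.33). For the ADP/ATP carrier of the inner membrane, *Slc25a31* differed by -1.21 and *Slc25a4* by 1.25, from 8.6 to 9.85. For subunit VIb, *Cox6b1* was higher by 1.31 and the germ-cell *Cox6b2* had no row. For the other 7 proteins the somatic form had no row, among them *Pdha1*, *Cs*, *Tomm20*, *Cox7b* and *Oxct1*. Some of these forms are near copies of each other, such as *Oxct2a* and *Oxct2b*, and probes may read both.

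**Figure D3:**
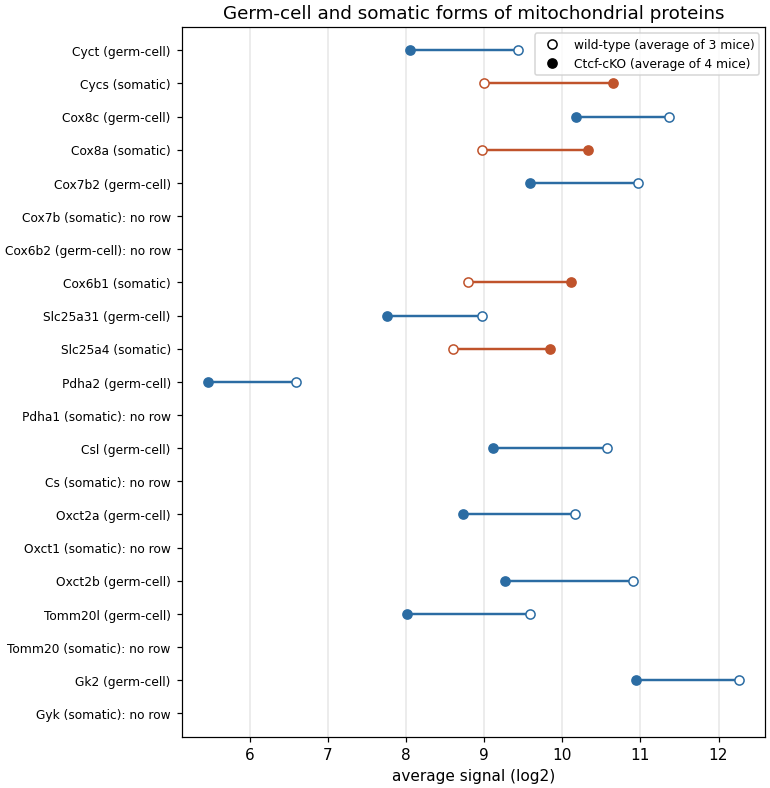
Average log2 signal in wild-type (open circle, 3 mice) and *Ctcf*-cKO (filled circle, 4 mice) of the germ-cell and somatic forms of 11 mitochondrial proteins, 1 gene per line, blue where lower and orange where higher in *Ctcf*-cKO. All 10 germ-cell forms with a row lie lower in *Ctcf*-cKO and all 4 somatic forms with a row lie higher.

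*Cycs* had 2 rows, which were both higher. The row on chromosome 6, which lies on the gene itself (chr6:50562563-50566538, 80 probes), averaged 8.22 and 9.60, a difference of 1.38. The row with the higher averages, which is the one counted, lies on chromosome 19 (chr19:24875686-24876634, 30 probes) outside the RefSeq gene, where the table gives a transcript of the same symbol, and it differed by 1.65. *Atp5g2* was the other gene with 2 rows, on chromosomes 7 and 15, with differences of 1.17 and 1.20.

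The windows around the start sites of 4 of these genes are shown because they put lower and higher genes side by side. They set *Cyct* against *Cycs* and, among subunits of cytochrome c oxidase, *Cox7b2* against *Cox8a*. The latter are the different subunits VIIb and VIII, and not 2 forms of 1 protein. Each window runs from 250 bases before to 50 bases after the start, 5′ to 3′ on the strand of the gene, from RefSeq (GRCm38.p6). The windows are chr2:76360404-76360703 on the minus strand for *Cyct*, chr6:50566520-50566819 on the minus strand for *Cycs*, chr5:71548156-71548455 on the minus strand for *Cox7b2* and chr19:7217567-7217866 on the minus strand for *Cox8a*. Capitals mark matches, on either strand, to GABP (CCGGAAGT), to the cAMP response element (CRE, TGACGTCA) or its first letters TGACGT, to the core AGGGGGC of the CTCF motif, to ERR (TCAAGGTCA), YY1 (AAGATGGC) or NRF1 (GCGCA, any base, then GCGC). All but the CTCF core are motifs of known regulators of mitochondrial genes.

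Cyct: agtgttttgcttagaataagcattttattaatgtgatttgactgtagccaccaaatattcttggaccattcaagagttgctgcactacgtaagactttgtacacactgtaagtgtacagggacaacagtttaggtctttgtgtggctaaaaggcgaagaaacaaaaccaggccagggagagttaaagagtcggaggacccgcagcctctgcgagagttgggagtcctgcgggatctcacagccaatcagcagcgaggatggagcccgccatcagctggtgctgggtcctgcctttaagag
Cycs: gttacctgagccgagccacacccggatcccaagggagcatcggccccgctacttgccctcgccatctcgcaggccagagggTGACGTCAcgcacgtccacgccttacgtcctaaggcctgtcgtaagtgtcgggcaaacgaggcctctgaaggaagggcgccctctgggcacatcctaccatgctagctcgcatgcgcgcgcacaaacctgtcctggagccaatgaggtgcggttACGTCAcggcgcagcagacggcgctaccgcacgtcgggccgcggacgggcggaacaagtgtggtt
Cox7b2: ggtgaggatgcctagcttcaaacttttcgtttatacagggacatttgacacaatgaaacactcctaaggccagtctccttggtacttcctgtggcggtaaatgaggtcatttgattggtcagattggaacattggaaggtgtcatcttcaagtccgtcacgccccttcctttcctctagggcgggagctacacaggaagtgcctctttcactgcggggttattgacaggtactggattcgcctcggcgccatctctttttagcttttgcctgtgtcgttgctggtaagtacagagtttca
Cox8a: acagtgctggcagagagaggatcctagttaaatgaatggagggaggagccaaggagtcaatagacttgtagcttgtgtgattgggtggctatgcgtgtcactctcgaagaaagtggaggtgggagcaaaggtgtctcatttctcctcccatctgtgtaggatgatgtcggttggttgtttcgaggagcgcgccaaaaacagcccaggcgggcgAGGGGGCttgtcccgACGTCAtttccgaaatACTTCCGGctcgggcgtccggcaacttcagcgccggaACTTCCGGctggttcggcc

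The windows of the germ-cell forms *Cyct* and *Cox7b2* held 0 matches. The *Cycs* window held a full CRE and 3 matches to its shorter form, of which 2 lie within the full element on opposite strands. The *Cox8a* window held 2 GABP matches, 1 short CRE form and 1 CTCF core. The germ-cell windows were poorer in CpG, with a ratio of observed to expected CpG of 0.47 in *Cyct* and 0.56 in *Cox7b2*, against 1.01 in *Cycs* and 0.84 in *Cox8a*. *Cox8c* has no entry among the RefSeq windows used here. A match is a run of letters and does not show that a factor was bound.

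Over all mitochondrial genes, 157 had a window and 36 had none. The 141 windows of higher genes had a median GC content of 60.3% and a median CpG ratio of 0.677, and the 53 windows of lower genes had 57.3% and 0.564, beside 52.7% and 0.384 in all 32851 RefSeq windows. NRF1 matches were present in 11.3% of the windows of lower genes, 7.09% of those of higher genes and 4.6% of all windows. The short CRE form, which includes every full CRE, was present in 17.0%, 16.3% and 7.51%. The CTCF core was present in 13.2% and 13.5%, beside 10.6% of all windows, with lower and higher genes close to each other. GABP matches were present in 5.66%, 1.42% and 3.89%, which for the lower genes is 3 windows. YY1 matches were present in 1.89%, 4.96% and 2.75%, and ERR matches in 0 windows of lower genes and 1 window of higher genes. Genes with several start sites have several windows. The NRF1, GABP and CRE letters contain CpG, and the part of base composition in these shares was not tested.

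How many coding genes of the whole array have a row is not known here, so the number of listed genes with a row is given without a background. The directions in each list below stand beside 73.6% higher among the mitochondrial genes and 38.7% higher among all coding genes of the table. Of 87 listed genes of the respiratory complexes, cytochrome c and ATP synthase, 76 had no row, 8 were higher and 3 were lower, and the 3 lower ones were the germ-cell forms *Cyct*, *Cox7b2* and *Cox8c*. This balance was near that of all mitochondrial genes. In complex I, the entry point for electrons from NADH, 2 of 36 listed genes had a row. These were *Ndufa1*, with averages of 7.74 and 8.78, and *Ndufb11*, with 6.41 and 7.81, accessory subunits whose genes both lie on chromosome X. In complexes II and III and cytochrome c, only the cytochrome c genes *Cyct* and *Cycs* of 15 listed genes had a row. In complex IV, which passes electrons to oxygen, 5 of 19 listed genes had a row. *Cox6b1* averaged 8.80 and 10.11, and *Ndufa4*, a subunit first assigned to complex I, averaged 8.27 and 9.64. The 2 ATP synthase genes with a row, of 17 listed, were *Atp5g2* (9.40 and 10.57) and *Atp5g3* (7.89 and 9.12), which encode the same subunit c of the rotating ring. Of 47 assembly factors, only *Ndufaf3* of complex I had a row, and it was lower, with 10.57 and 9.08.

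**Figure D4:**
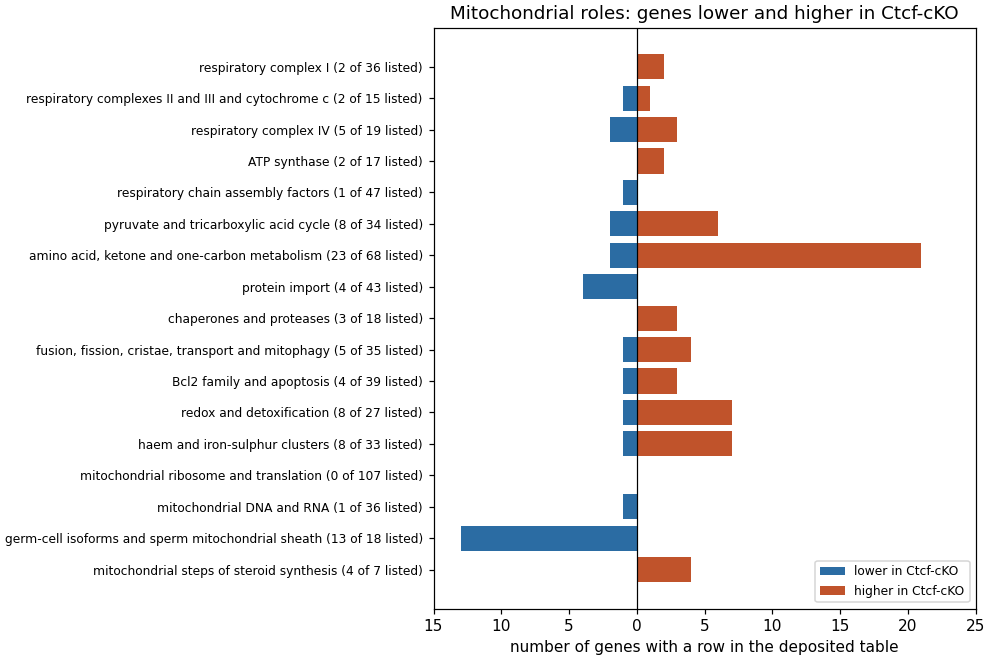
Number of genes with a row that were lower (blue, to the left) or higher (orange, to the right) in *Ctcf*-cKO, for each of 17 lists of mitochondrial roles; the labels give the genes with a row of all genes listed, mitochondrial by the rule or not, and a gene may stand in more than 1 list. The longest bar to the left is that of the germ-cell isoforms and sheath genes (13) and the longest to the right that of amino acid, ketone and one-carbon metabolism (21).

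Enzymes of pyruvate use and the tricarboxylic acid cycle were listed in both directions. Of 34 genes, 8 had a row, 6 higher and 2 lower, a balance near that of all mitochondrial genes. The 2 lower ones were the germ-cell forms *Pdha2* and *Csl*, whose somatic forms had no row. Among the higher ones, *Idh3g*, a regulatory subunit of the NAD-dependent isocitrate dehydrogenase, averaged 8.21 and 9.85 (fold 3.12). *Idh2*, the NADP-dependent enzyme of the matrix, averaged 6.93 and 8.03. *Mdh2*, the mitochondrial malate dehydrogenase, averaged 8.48 and 9.59, and *Me2*, a malic enzyme, averaged 7.55 and 8.61. *Ogdhl* and *Pdk4*, which the rule left out, were higher by 1.66 and 1.33.

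Amino acid and ketone metabolism was the role with the most genes that had a row. Of 68 genes, 23 had a row, 21 of them higher and 2 lower, and 20 of the 23 were mitochondrial by the rule. *Gpt2*, the mitochondrial alanine aminotransferase, had the largest difference of the list, with averages of 8.23 and 10.35 (fold 4.35). *Aldh2*, which oxidizes acetaldehyde and other aldehydes, averaged 9.58 and 11.52. *Gatm*, which makes the precursor of creatine, averaged 9.72 and 11.36, *Oat*, which converts ornithine, averaged 8.22 and 9.84, and *Abat*, which breaks down GABA, averaged 8.30 and 9.86. These 5 genes were higher by folds of 2.95 or more. *Aldh7a1* of lysine breakdown averaged 8.37 and 9.91, *Glud1*, the glutamate dehydrogenase, averaged 7.51 and 8.54, and *Acat1*, an acetoacetyl-CoA thiolase, averaged 9.17 and 10.30. Listed genes with a row that the rule left out were *Got2*, *Pccb* and *Maob*, higher by 1.35, 1.12 and 1.74.

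Enzymes that break down leucine, isoleucine and valine were also looked at across the table, most of them from this list. A group of 20 genes of this pathway was drawn up after the values had been seen, so its count is a description only. Of the 20, 14 had a row, all higher, by 1.08 to 1.75 with a median of 1.285, and 12 were mitochondrial by the rule. The first step is the aminotransferase *Bcat2*, which averaged 7.90 and 9.16. The next is the branched-chain ketoacid dehydrogenase, of which *Dbt*, the E2 core, averaged 7.37 and 9.12 and *Bckdhb*, the E1 beta subunit, averaged 6.99 and 8.20. Its kinase *Bckdk*, which switches the complex off, averaged 6.92 and 8.18, and its phosphatase *Ppm1k*, which switches it on, averaged 6.29 and 7.67, so that both regulators of opposite action were higher. On the leucine branch, *Ivd* averaged 8.01 and 9.42, and the methylcrotonyl-CoA carboxylase subunits *Mccc1* and *Mccc2* averaged 6.70 and 7.97, and 7.66 and 8.74. On the valine branch, *Acad8* averaged 7.11 and 8.41 and *Aldh6a1* averaged 8.51 and 10.16. The last steps to succinyl-CoA, *Mcee* and *Mut*, averaged 7.39 and 8.77, and 7.90 and 9.06.

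The 2 lower genes of the list were *Oxct2a* (10.17 and 8.73) and *Oxct2b* (10.90 and 9.27), the spermatid forms of the CoA transferase with which ketone bodies are used.

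**Figure D5:**
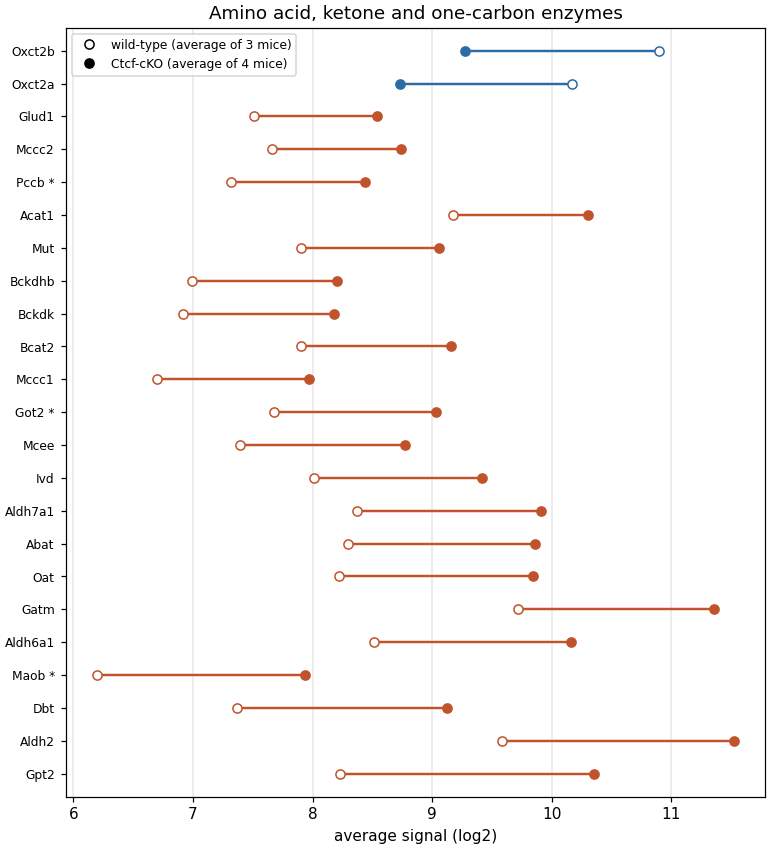
Average log2 signal in wild-type (open circle, 3 mice) and *Ctcf*-cKO (filled circle, 4 mice) of the 23 genes of amino acid, ketone and one-carbon metabolism with a row; an asterisk marks genes that were not mitochondrial by the rule. Only *Oxct2a* and *Oxct2b* (blue) lie lower in *Ctcf*-cKO.

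Of 43 listed genes of protein import, 4 had a row and all 4 were lower, beside 61.3% of all coding genes of the table. *Tomm20l*, named above, is also counted among the germ-cell isoforms. *Timm8a2*, of the family of small chaperones in the intermembrane space, averaged 9.74 and 8.24. *Timm10b*, which acts with the carrier translocase of the inner membrane, averaged 9.40 and 7.91, and *Mipep*, a peptidase that trims imported precursors in the matrix, averaged 10.24 and 8.94. The row named *Timm10b* has 724 probes and spans chr7:105640056-105721799, and whether it reads this gene alone was not settled here. Mitochondrial chaperones and proteases lay on the other side, with 3 of 18 listed genes having a row and all 3 higher. *Hspd1*, the chaperonin Hsp60, averaged 8.63 and 9.84, *Pitrm1*, which degrades presequences, averaged 8.08 and 9.51, and *Lonp1*, which the rule left out, was higher by 1.10.

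Among genes of mitochondrial shape, transport and removal, 5 of 35 had a row. *Fundc1*, *Fundc2* and *Bnip3*, of which *Fundc1* and *Bnip3* are receptors for the removal of mitochondria by autophagy, averaged 6.11 and 7.15, 6.16 and 7.64, and 7.20 and 8.60. *Trak1*, an adaptor that links mitochondria to kinesin, averaged 8.12 and 9.26. *Gdap1*, an outer membrane protein of fission, was the lower gene, with 6.71 and 5.50. Among 39 genes of the Bcl2 family and of cell death, 4 had a row. *Vdac1*, the main channel of the outer membrane, averaged 7.93 and 9.53, *Casp8*, an initiator caspase, averaged 6.71 and 8.36, and *Aifm1*, a flavoprotein of the intermembrane space on chromosome X, averaged 6.92 and 8.15. *Bcl2l14*, which the rule left out, was lower by a difference of -1.24.

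Genes of redox balance were mostly higher. Of 27 listed genes, 8 had a row, 7 higher and 1 lower. *Ucp2*, an inner membrane carrier thought to lower reactive oxygen, averaged 7.89 and 9.85. *Prdx3*, the mitochondrial peroxiredoxin, averaged 8.25 and 10.12, *Tst*, the sulphur transferase rhodanese, averaged 7.82 and 9.73, and *Gstk1*, a glutathione transferase, averaged 8.11 and 9.81. All of these were past a fold of 3. *Gpx1*, *Cat* and *Mgst1*, which the rule left out, were higher by 1.91, 1.64 and 1.81. The lower gene was *Sqrdl*, the sulphide quinone oxidoreductase, with 9.65 and 8.52.

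Of 33 listed genes of haem and iron-sulphur cluster synthesis, 8 had a row, 7 higher and 1 lower. *Alas1*, the first enzyme of haem synthesis, averaged 8.81 and 9.85, and *Ppox*, a late enzyme of it, averaged 6.75 and 7.84. The sideroflexins *Sfxn1*, *Sfxn2* and *Sfxn3*, inner membrane carriers, averaged 7.24 and 8.40, 6.58 and 7.63, and 7.90 and 9.43, and *Tmem14c*, which is needed for the import of the haem precursor, averaged 8.19 and 9.20. *Fdx1*, an electron carrier that the rule left out, was higher by 1.53. The lower gene was *Ftmt*, an intronless gene for mitochondrial ferritin with high levels in testis, with 9.38 and 8.23.

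Of 7 genes of the mitochondrial steps of steroid synthesis, 4 had a row and all 4 were higher. *Star*, which brings cholesterol to the inner membrane in Leydig cells, averaged 9.07 and 11.22 (fold 4.44). *Cyp11a1*, which cleaves the side chain there, *Hsd3b1* and *Fdx1*, none of which met the rule, were higher by 2.20, 1.81 and 1.53. The row of *Star* held no biological process term, so the exclusion of steroids could not act on it. *Star*, *Cyp11a1* and *Hsd3b1* also stand among the Leydig cell markers above, so their values here are the same values and no second observation.

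The lists of genes that maintain and express the mitochondrial genome gave 1 value, but they are not complete. Outside them, *Rbfa*, a ribosome binding factor, averaged 7.67 and 8.79, and *Trmt2b*, a transfer RNA methyltransferase, averaged 6.6 and 7.95. The DNA ligase *Lig3* was lower, with 9.79 and 8.76. *Hsd17b10*, named below, was also outside these lists. Of 107 listed genes of the mitochondrial ribosome and of translation, 0 had a row anywhere in the table, whether or not they met the rule. Of 36 genes for mitochondrial DNA and RNA, 1 had a row, *Tfb1m*, which methylates the small ribosomal RNA, with 9.43 and 8.38. A gene without a row may have missed the thresholds or may not be on the array under its listed symbol, so that these counts give no level.

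Of the 193 genes, 67 stood in a list of roles and 126 in none. Among the latter, the lower genes with the largest differences were *4931431F19Rik*, now named *Ubqln5* (9.18 and 7.45), and *Maats1*, a gene of motile cilia (9.38 and 7.70). *Prdx6b*, a relative of a peroxiredoxin, averaged 9.99 and 8.47, *4933405O20Rik* averaged 10.21 and 8.73 and *Abcc12*, a transporter of the ABC family, averaged 9.73 and 8.25. *Dusp21*, a dual specificity phosphatase on chromosome X, and *Nipsnap3a* averaged 8.91 and 7.47, and 8.05 and 6.61. *Sord*, the sorbitol dehydrogenase, averaged 12.54 and 11.46. *Fsip2*, a protein of the sperm fibrous sheath, averaged 11.25 and 9.93, *Gpd2*, the glycerol phosphate dehydrogenase of the inner membrane, averaged 10.98 and 9.95, and *Acsl1*, an acyl-CoA synthetase, averaged 11.28 and 10.24.

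The largest difference of all mitochondrial genes was that of *Armcx3*, an outer membrane protein that takes part in mitochondrial transport, with 5.62 and 8.11 (fold 5.62). Its row lies at chr7:128039019-128042418, whereas the RefSeq gene of this symbol lies on chromosome X, and what this row reads was not settled here. The rows of *Cycs* and *Atp5g2* that were counted and that of *Tmlhe*, on an unplaced piece of chromosome X, also lay outside the RefSeq gene of their symbol. *Ctsb* and *Tpp1*, proteases known from the lysosome, averaged 9.53 and 11.73, and 7.71 and 9.80. *Ass1*, a cytosolic enzyme of the urea cycle, averaged 8.91 and 11.08. *Txn1*, thioredoxin, averaged 7.88 and 9.95, *Gstp1*, a glutathione transferase, averaged 8.40 and 10.38, and *Cd36*, a fatty acid transporter of the cell surface, averaged 7.30 and 9.26. *Acss3* and *Adhfe1*, matrix enzymes, averaged 6.08 and 8.15, and 6.49 and 8.51. Of the 12 largest higher differences, those of *Ctsb*, *Tpp1*, *Ass1*, *Txn1*, *Gstp1* and *Cd36* thus belong to proteins best known from other places in the cell.

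The cellular component terms name a part of the mitochondrion for 76 genes and none for 117. The share of higher genes was nearly the same in both, 73.7% (56 of 76) and 73.5% (86 of 117). Of 29 matrix genes, 25 (86.2%) were higher and 4 were lower, the lower ones being *Dusp21*, *Mipep*, *Atxn3* and *Pdha2*. Of 37 inner membrane genes 28 were higher (75.7%), of 16 outer membrane genes 11 (68.8%) and of 12 genes of the intermembrane space 8 (66.7%). The small parts rest on few genes, and no test was made between them.

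Chromosome X held 17 of the higher genes (12%, beside 11.5% of all higher coding genes) and 2 of the lower genes (3.92%, beside 7.63%). The 2 lower ones were *Dusp21* and *Asb9*. The higher ones included *Atrx* (6.84 and 8.46) and *Ddx3x* (8.68 and 10.30), whose products act mainly in the nucleus and on RNA, *Hsd17b10* (7.35 and 8.71), a matrix dehydrogenase that is also part of mitochondrial RNase P, and *Taz* (6.41 and 7.61), which remodels cardiolipin. A row of at most 40 probes was found for 17 lower genes (33.3%) and for 11 higher genes (7.75%), beside 31.6% and 11.4% of all lower and higher coding genes. The averages of such rows rest on few probes.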

How the data were processed

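RNA of seminiferous tubules from 3 wild-type and 4 *Ctcf*-cKO mice was hybridized to mouse transcriptome arrays, 1 per mouse. Per the submitters' processing notes, the tools were Affymetrix Expression Console 1.4.1, RMA and Transcriptome Analysis Console 3.0, with build mm10. The deposited table holds, for 7580 transcript clusters, the authors' bi-weight average of log2 signal in each genotype, written with decimal commas. It has 0 columns of single mice, and no test, SD or fit was possible, so limma was not run. Its 3 columns of the authors' comparison (linear fold change, p-value and adjusted p-value) were not used. Probe counts, a number of another kind, and annotation were read from the same deposited table.

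The difference of the averages (*Ctcf*-cKO minus wild-type) and its fold were computed with python 3.11.15, pandas 2.3.3 and numpy 2.4.6. Coding genes were those in the table's 2 classes Coding or Complex, and a gene with several rows took the row with the highest mean of both averages. Named genes were the 12 with the largest difference in each direction, every mitochondrial gene of a role list and the listed genes with a row outside the rule; further genes of the text were picked after their values were seen. The genes and lists were chosen with earlier results of these data known. The selection was tested on made-up rows of 400 genes and passed 6 of 6 checks. By symbol 184 and by Entrez ID 9 of the 193 genes matched RefSeq. The rows of 11 genes gave more than 1 symbol, and the first was used. The closing section gives 11 alternatives. A further gene first put in a role list was taken out of it and is not reported here.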

Additional observations from a re-analysis of the deposited data

Results flagged for a closer look

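Rows on the mitochondrial genome itself lay outside the comparison, which used coding genes. The table has 8 such rows, all non-coding, and all 8 were higher in *Ctcf*-cKO, with a median difference of 1.395. They were singled out because they carry a signal in rows that the counts of mitochondrial genes leave out. Of these, 5 name the transfer RNA genes *mt-Tq* (6.34 and 7.69), *mt-Ta* (7.08 and 8.47), *mt-Ty* (7.09 and 8.51), *mt-Ts1* (7.0 and 8.4) and *mt-Tk* (6.71 and 8.42), and 3 have no symbol. A row without a symbol averaged 10.33 and 12 and covers positions 15356 to 16294 of the mitochondrial genome, and a second unnamed row lies within it. No row names a protein-coding gene of this genome. With 1 average per genotype the difference has no error here. The median difference of all rows of the table was -1.145. The share of higher rows among the non-coding rows was not computed, so the count of 8 has no such background.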

How the results depend on the processing

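Counts of lower and higher genes stayed within 1.5 times of 51 and 142 under 7 of the 11 alternatives for the lower and 8 for the higher genes. Some of these could move little. Re-centring raised every difference, so it could not reduce the higher count. The filter at a log2 average of 6 removed no gene, and the choice of row concerned only the 2 genes with 2 rows. The exceptions for the lower count were 3 at a linear fold of 3, 23 with the class Coding alone, 20 with a named part of the mitochondrion, and 0 after the differences were re-centred on the median of all rows. For the higher count they were 39, 41 and 56 under the first 3 of these settings. Re-centring removed a shift of -1.145, left 31 of the 51 lower genes below 0 and 20 above 0, and set the largest remaining decrease at -0.585. It gave no median for lower genes, and all rows had been selected for their fold, so that this median is not that of the array. The share of higher genes was 92.9% at a fold of 3 and 64.1% with the class Coding alone. At a fold of 3, the balance of all coding genes was also towards higher, with 413 higher and 319 lower. No such background was computed for the class Coding alone. After re-centring, all genes still past a fold of 2 were higher. Without the exclusions of the rule there were 73 lower and 204 higher genes.

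The median difference of the lower genes was -1.68 at a fold of 3, -1.33 with the class Coding alone, -1.21 without the exclusions, -1.235 with a named part and -1.275 without the 20 genes that have no biological process term, to which the exclusions could not apply. In the same order, the median of the higher genes was 1.75, 1.43, 1.375, 1.335 and 1.33, and it was 2.49 after re-centring. The last alternative, and the one without rows outside the RefSeq gene, were chosen after seeing the data. Leaving out single mice could not be run, as the table holds averages only. No paired analysis was possible because the table has 1 average per genotype.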
